A study of Saccharomyces cerevisiae with 4 samples.

Results

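The genes examined here encode 10 enzymes of the budding yeast Saccharomyces cerevisiae that make or break down its storage carbohydrates, trehalose and glycogen. They were taken by systematic name from the 6388 gene probes of an oligonucleotide array, and each had 1 probe, printed as 3 spots. TPS1 (YBR126C), TPS2 (YDR074W), TSL1 (YML100W) and NTH1 (YDR001C) act on trehalose. GSY1 (YFR015C), GSY2 (YLR258W), GLC3 (YEL011W), GPH1 (YPR160W) and GDB1 (YPR184W) act on glycogen, and PGM2 (YMR105C) supplies both routes.

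Every RNA on the slides came from yeast treated with 0.6 mol/L NaCl during 45 min, and neither an untreated culture nor a strain with an intact BDF1 was included. The reference strain, BF2, was bdf1∆[pYX242][pRS316], that is, it lacked BDF1 and held both of these plasmids. BF2B, bdf1∆bdf2∆[BDF2 L][pYX242], lacked BDF1 and BDF2 and held the construct BDF2 L and the plasmid pYX242. BF2S, bdf1∆bdf2∆[BDF2 L][SIR2 H], lacked the same genes and held BDF2 L and the construct SIR2 H. The labels do not explain L and H. Bdf1 and Bdf2 are bromodomain proteins, readers of acetylated histones, and Sir2 is the histone deacetylase of silent chromatin. Each strain was set against BF2 in 2 hybridisations with exchanged dyes, slide 1 with the strain in Cy5 and slide 2 with the strain in Cy3.

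Trehalose is a disaccharide that yeast accumulates under heat, osmotic and other stress, where it protects proteins and membranes, and glycogen is its branched glucose polymer for storage. Both start from glucose phosphate and UDP-glucose. Many genes of both routes are known targets of the stress transcription factors Msn2 and Msn4. Synthesis and breakdown enzymes are often induced together, and their activity is then set by phosphorylation.

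Since slides 1 and 2 of a strain carried the same RNA extracts, they stand for 1 replicate. The spread between cultures is unknown, no test was made, and an SD given after a log2 ratio is the technical spread of 2 hybridisations. The labels state how genes were selected, by a change of over 2-fold that both hybridisations share. This rule was kept, with the added condition that at least 1 channel was above local background on each slide. Of the manipulated genes, BDF2 stood at 1.61 ± 0.03 on the log2 scale in BF2B over BF2. On the BF2S slides SIR2 stood at 1.51 ± 0.18, BDF2 at 0.65 ± 0.61 and the deleted BDF1 at 1.64 ± 0.28. Blank spots there had medians of 6049 and 5325 brightness units in the BF2S channel, above the gene medians of 1333 and 633. In the BF2 channel of the same slides blank spots were also brighter than genes, with medians of 1708.5 and 1767.5 against 1221.5 and 1411. On the BF2B slides blank spots had medians of 29 to 110 units beside gene medians of 464 to 667. The enzymes are therefore read mainly in BF2B, and the other strain is written as the sample labelled BF2S.

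BF2B was compared with BF2 in salt-treated cells. By the labels BF2 was not deleted for BDF2, whereas BF2B was, and BF2B held BDF2 L where BF2 held pRS316. The effects of these differences cannot be told apart. The 10 enzymes did not move one way. TPS1, TPS2 and TSL1, which encode the trehalose synthase complex, had log2 ratios of -0.65 to -0.83, and the glycogen synthase genes GSY1 and GSY2 had ratios of 0.81 and 0.33. All 10 passed the filter on dim genes, and 0 of the 10 were called, against 2.98% of the 4660 gene probes above background. The members' median log2 ratio was -0.20 beside -0.01 over all 4660 probes, with -0.28 on slide 1 and -0.11 on slide 2. At a lower threshold of 1.5-fold on both slides TPS1 and TSL1 were lower and GSY1 was higher, where 4.66% of all probes were lower and 4.16% higher.

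**Figure D1:**
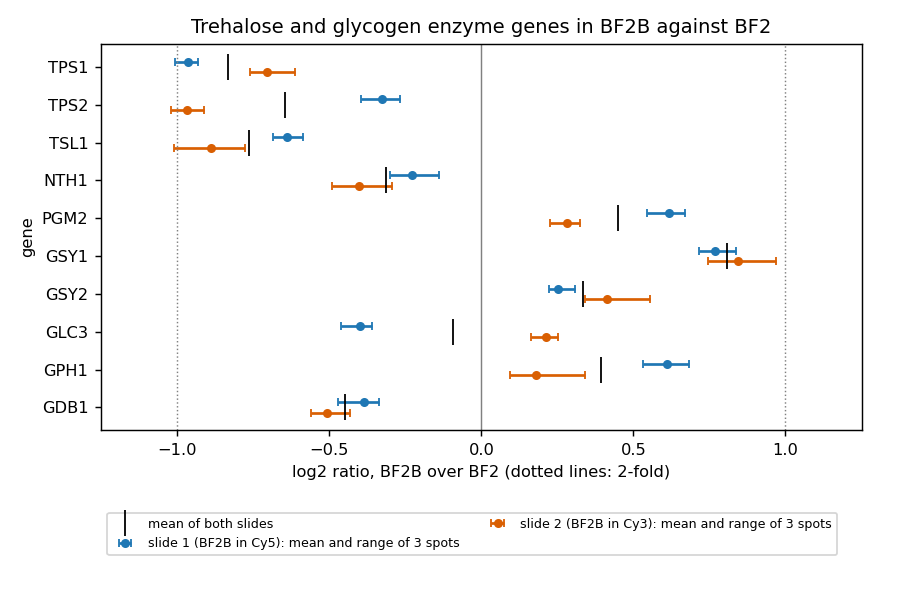
Log2 ratio of BF2B over BF2 (x axis) for the 10 genes (y axis), with the mean and range of the 3 spots on each slide, the mean of both slides as a black bar and 2-fold as dotted lines. TPS1, TPS2, TSL1, NTH1 and GDB1 lie left of 0 on both slides, PGM2, GSY1, GSY2 and GPH1 right of 0, and GLC3 changes side.

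TPS1 encodes the trehalose phosphate synthase that joins glucose phosphate to UDP-glucose. Its signal above local background was 11452 units in BF2B and 18867 in BF2 on slide 1, and 11972 in BF2B and 23924 in BF2 on slide 2. BF2B was the dimmer strain in either dye. After correction for dye and intensity the log2 ratios were -0.96 and -0.71, a mean of -0.83 ± 0.18 or 1.78-fold lower. Of the 4660 probes, 3.26% had a lower mean ratio.

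TSL1 encodes a regulatory subunit of the same complex. Its signals were 15914 units in BF2B and 20159 in BF2 on slide 1, and 10966.5 in BF2B and 24949 in BF2 on slide 2. The log2 ratios of -0.64 and -0.89 gave a mean of -0.76 ± 0.18, 1.70-fold lower. TSL1 and TPS1 differed from each other by less than the spread of the slides, since TPS1 minus TSL1 was -0.07 ± 0.36.

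TPS2 encodes the phosphatase that releases trehalose from its phosphate. It gave 5539 units in BF2B and 6713.5 in BF2 on slide 1, and 4426 in BF2B and 10567 in BF2 on slide 2. Its slides agreed in direction but not in size, with log2 ratios of -0.33 and -0.97 and a mean of -0.65 ± 0.45. All 6 spots of each of the 3 synthesis genes lay below 0. Over all probes above background 22.5% did so.

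NTH1 encodes the neutral trehalase, which splits the sugar again. It gave 1803.5 units in BF2B and 2091 in BF2 on slide 1, and 1743 in BF2B and 2717.5 in BF2 on slide 2. With log2 ratios of -0.23 and -0.40 and a mean of -0.31 ± 0.12 it lay on the same side as the synthesis genes, nearer 0 on both slides. NTH1 minus TPS1 was 0.74 on slide 1 and 0.30 on slide 2.

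PGM2 encodes the major phosphoglucomutase, which interconverts the glucose phosphates from which UDP-glucose is made. It gave 5938 units in BF2B and 3720 in BF2 on slide 1, and 5790.3 in BF2B and 5628 in BF2 on slide 2. Its log2 ratios of 0.62 and 0.28 averaged 0.45 ± 0.24, 1.36-fold higher. BF2B was thus the brighter strain in both dye orientations, by little on slide 2. PGM2 minus TPS1 was 1.58 on slide 1 and 0.99 on slide 2.

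**Figure D2:**
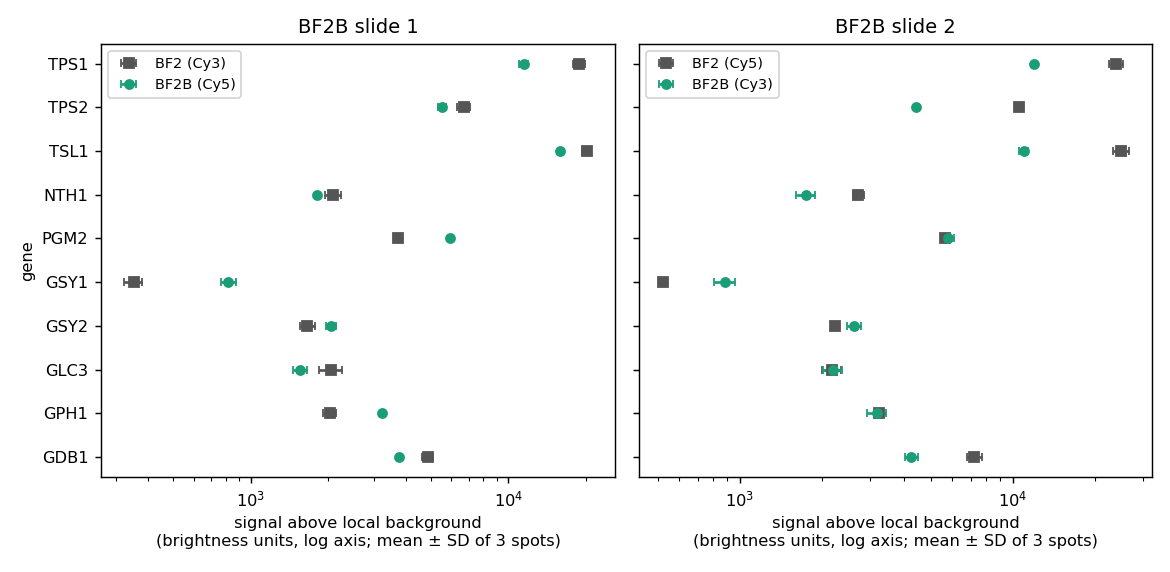
Signal above local background in brightness units (x axis, log scale) of the 10 genes (y axis) in BF2 (squares) and BF2B (circles) on each slide, as the mean ± SD of 3 spots; the dyes are exchanged between the panels. TPS1 and TSL1 are dimmer in BF2B in both panels, and GSY1 is brighter in BF2B in both; signals of different probes are not comparable.

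The glycogen synthases, which lengthen the glucose chains, both had ratios above 0, with PGM2 (0.45) and GPH1 (0.39) between them. GSY1 gave 817 units in BF2B and 351 in BF2 on slide 1, and 881.5 in BF2B and 524 in BF2 on slide 2. Its log2 ratios of 0.77 and 0.85 gave the mean farthest above 0 among the 10 genes, 0.81 ± 0.05 or 1.75-fold higher, above 96.7% of all probes. BF2 was not above background on slide 1, so the size of this ratio rests on a signal near the limit of detection. When spots with a negative scanner flag were left out, GSY1 had no value in either comparison.

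GSY2, known as the predominant isoform, gave 2053.5 units in BF2B and 1658 in BF2 on slide 1, and 2622.5 in BF2B and 2229.7 in BF2 on slide 2. It stood at log2 ratios of 0.25 and 0.41, with a mean of 0.33 ± 0.11 or 1.26-fold. Both isoforms lay above 0 in all 6 spots, and GSY1 exceeded GSY2 by 0.52 on slide 1 and 0.43 on slide 2. The distance from TPS1 was 1.64 ± 0.13 for GSY1 and 1.17 ± 0.07 for GSY2, although none of these genes was called and BF2 was not above background for GSY1 on slide 1. Whether a probe of 1 isoform also binds the transcript of the other was not tested.

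GSY1 lies on chromosome VI, by its systematic name, and the other genes of that chromosome lay low in BF2B. Their median log2 ratio was -0.76 over 86 genes above background, with 1 higher and 16 lower, while the medians of the 15 other chromosomes ran from -0.08 to 0.48. GSY1 stood 1.56 above the median of chromosome VI and above 98.8% of its other genes. The part of this chromosome-wide difference in the ratio of GSY1 was not tested.

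GLC3 encodes the branching enzyme, which adds side chains to glycogen. It gave 1554 units in BF2B and 2046 in BF2 on slide 1, and 2194.5 in BF2B and 2169 in BF2 on slide 2. The slides disagreed in direction, with log2 ratios of -0.40 and 0.21 and a mean of -0.09 ± 0.43, and GLC3 was the one gene of the 10 whose spots fell on both sides of 0, 3 on each.

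The enzymes that take glycogen apart lay on opposite sides of 0. GPH1, the phosphorylase that removes glucose from chain ends, gave 3237 units in BF2B and 2028 in BF2 on slide 1, and 3184 in BF2B and 3232.5 in BF2 on slide 2. Its log2 ratios were 0.61 and 0.18, with a mean of 0.39 ± 0.31. On slide 2 the ratio lay above 0 only after correction for dye and intensity, since the uncorrected signal was slightly dimmer in BF2B. GDB1, the debranching enzyme that clears the branch points the phosphorylase cannot pass, gave 3749 units in BF2B and 4852 in BF2 on slide 1, and 4252.5 in BF2B and 7234 in BF2 on slide 2. It stood at -0.39 and -0.51, a mean of -0.45 ± 0.08. GPH1 minus GDB1 was 1.00 on slide 1 and 0.68 on slide 2.

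Taking the list as a whole, 5 genes lay below 0 in all 6 spots (TPS1, TPS2, TSL1, NTH1 and GDB1) and 4 above 0 in all 6 (PGM2, GSY1, GSY2 and GPH1), where 22.5% and 22.6% of all probes above background did. Among genes of like intensity, within 0.5 on the log2 scale, the technical error of a mean of 2 slides was 0.13 to 0.15, and 0.22 at the low intensity of GSY1. The means of 9 members exceeded it and that of GLC3 did not, as against 50.4% of all probes. This error holds no difference between cultures.

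**Figure D3:**
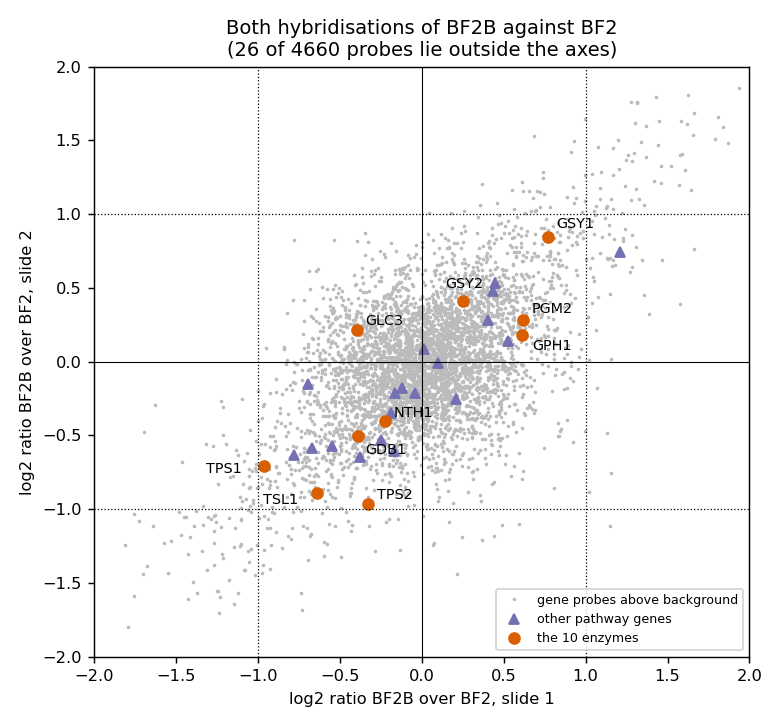
Log2 ratio of BF2B over BF2 on slide 1 (x axis) and slide 2 (y axis) for the gene probes above background (grey), the other pathway genes (triangles) and the 10 enzymes (circles), with 2-fold as dotted lines. The 10 enzymes all lie inside the 2-fold lines, and GLC3 is the only one of them in a quadrant where the slides disagree.

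The rest of the pathway was read from 22 further genes, chosen by function. Of these 19 were above background on both BF2B slides, with a median log2 ratio of -0.15. By the 2-fold rule 0 were higher, 0 lower and 19 not called, where 2.98% of the 4660 probes were called. TPS3, the other regulatory subunit of the trehalose synthase complex, stood at -0.39 ± 0.20, on the side of TSL1, which lay 0.38 ± 0.02 below it. UGP1, which makes the UDP-glucose used by both routes, stood at -0.51 ± 0.19, and all of its 6 spots were below 0. UGP1 and PGM2, enzymes of consecutive steps, thus lay on opposite sides of 0.

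Among breakdown enzymes, the trehalases NTH2 and ATH1 stood near 0, at -0.15 ± 0.04 and 0.05 ± 0.08. SGA1, the glucoamylase of sporulating cells, stood at -0.71 ± 0.10, but was above background in 1 of 2 slides in either strain. GLG1, a glycogenin that primes glycogen chains, stood at 0.49 ± 0.06, on the side of the synthases. Its partner GLG2 (-0.22 ± 0.43) and the minor phosphoglucomutase PGM1 (0.17 ± 0.63) did not pass the filter on dim genes, so neither isoenzyme pair could be compared.

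The farthest of the 22 was HXK2, a hexokinase gene picked out here after its values were seen, with 1.21 on slide 1, 0.74 on slide 2 and a mean of 0.98 ± 0.33. The 9 genes around the phosphatase and kinase that control glycogen synthase ran from -0.63 to 0.34, with 8 of them above background. HXK1, a second hexokinase gene, and IGD1, an inhibitor of the debranching enzyme, lie on chromosome VI like GSY1. They stood at 0.46 ± 0.03 and -0.42 ± 0.38, which is 1.21 and 0.34 above the median of that chromosome.

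Genes with a pattern most like TPS1 were ranked by the Euclidean distance of their log2 ratios over the 2 BF2B slides, among 2506 other probes above background in both channels. The nearest were the stress-induced gene DDR2 at a distance of 0.02, the mitochondrial chaperone gene HSP60 at 0.03, the transcriptional repressor gene XBP1 at 0.05, YMR090W at 0.05 and the ribonucleotide reductase gene RNR2 at 0.07. For GSY1 they were MTG1 at 0.02, PMP1 at 0.04, CCR4 at 0.06, the mannosyltransferase gene PMT2 at 0.06 and YHR033W at 0.07. With 2 values per gene, 10 probes lay within 0.1 of TPS1 and 11 within 0.1 of GSY1.

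In the sample labelled BF2S the enzymes were mostly lower than in BF2. By the rule of 2-fold on both slides 0 were higher, 9 were lower and GSY1 was not called, where 25.1% of the 5290 probes above background were lower and 19.3% higher. The median log2 ratio of the members was -2.89 beside 0.05 over all probes, -2.07 with members at their bound and -1.63 after scaling between slides. These decreases rest on signals at or near background in the BF2S channel. For 6 of the 9 that channel was not above background on either slide, and for all 10 genes its signals were dimmer than the typical blank spot. When ratios were scaled to a common spread between slides, 6 of the enzymes were lower, beside 718 of all probes lower and 131 higher in place of 1328 and 1023.

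**Figure D4:**
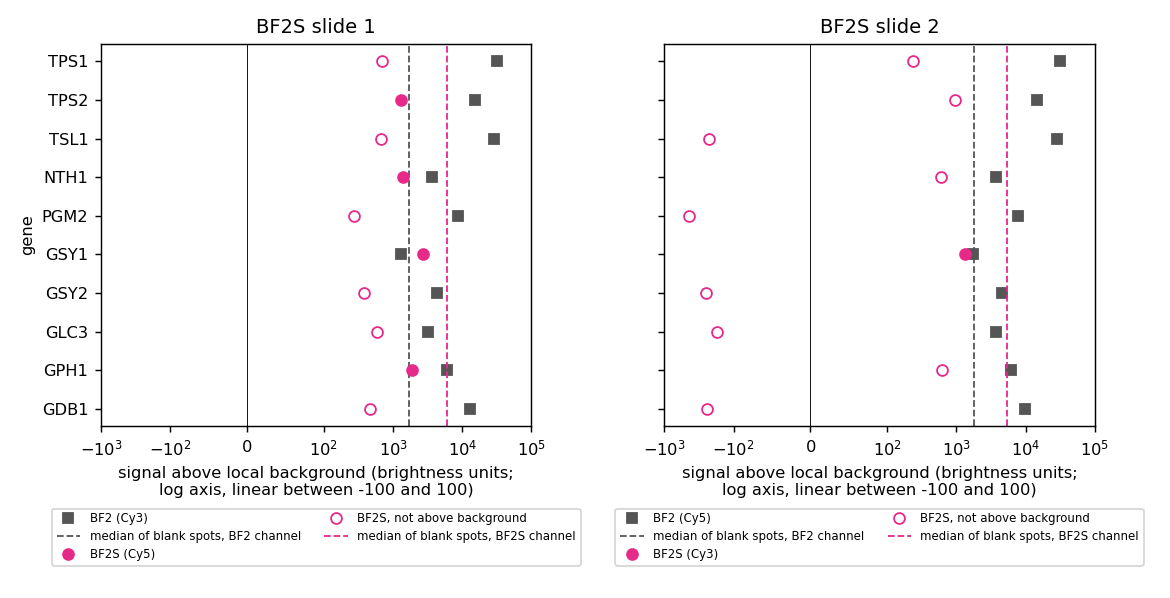
Signal above local background in brightness units (x axis, log scale, linear between -100 and 100) of the 10 genes (y axis) in BF2 (squares) and in the sample labelled BF2S (circles, open where not above background) on each slide, with the medians of blank spots as dashed lines. All circles lie left of the median of blank spots of the BF2S channel, and GSY1 is the only gene whose BF2S signal is above background on both slides.

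Among the trehalose genes, TPS1 gave 698 and 235 units in BF2S on slides 1 and 2, beside 31451 and 31315.5 in BF2. Its log2 ratios of -4.17 and -2.93 averaged -3.55 ± 0.88, from a BF2S signal not above background on either slide, and no bound beyond this measured mean could be formed. TSL1 gave 676 and -228 units beside 28747 and 28176 and was 20.0-fold lower at its bound. Bounds here were formed with the higher of the lowest signal above background and the gene's own on each slide. That lowest signal is the dimmest passing probe of the slide and not a limit of detection at the gene's own spots. On BF2S slide 2 PCL10, at 1104 units, was not above background while HXK2, at 1042, was. Decreases smaller than these bounds are therefore possible. The bounds also depend on the correction used here. After scaling between slides the log2 ratios of the 6 genes not above background in BF2S lay between -2.59 and -1.44. Each was smaller in size than its bound or, for TPS1, its mean. Under median centring TPS1 stood at -5.13 and TSL1 at -5.46, farther below 0 than their means of -3.55 and -4.55. PGM2, GSY2, GLC3 and GDB1 then lay slightly nearer 0 than their means. TPS2, above background in BF2S on slide 1 alone with 1304 and 949 units beside 15514 and 14706 in BF2, had a log2 ratio of -1.99 ± 0.85. NTH1, again above background on slide 1 alone with 1391 and 599.7 units beside 3674 and 3783, stood at -1.49 ± 0.04.

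PGM2 was 8.28-fold lower at its bound, from 271 and -442.5 units in BF2S beside 8789.5 and 7649.5 in BF2. The glycogen genes split. GSY2 gave 378 and -247 units beside 4299 and 4563.5 and was 4.45-fold lower at its bound. GLC3 gave 575 and -175.5 units beside 3185 and 3730.3 and was 3.49-fold lower at its bound. GDB1 gave 460.5 and -243 units beside 12923 and 9884 and was 13.0-fold lower at its bound. GPH1, above background in BF2S on slide 1 alone with 1884.5 and 609 units beside 5932 and 6061, stood at -1.72 ± 0.35.

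GSY1 was the exception. It gave 2708.5 and 1319 units in BF2S beside 1285.5 and 1715 in BF2, above background in both channels of both slides, and its log2 ratios of 0.74 and 0.17 averaged 0.46 ± 0.40. Against the BF2B values this is a difference of -0.35 ± 0.46, within the spread of the slides. The other genes of chromosome VI had a median of -0.04 there, beside -0.76 in BF2B. The BF2S mean of GSY1 lay above 60.9% of all probes, and 1 of its 6 spots was below 0. Of the 20 further pathway genes above background on the BF2S slides, 4 also lay above 0 on both slides and 15 lay below. Over all 5290 probes, 2479 lay above 0 on both slides and 2383 below. Both the BF2S and the BF2 signals of GSY1 were below the blank medians of their channels, which were 1708.5 and 1767.5 units for BF2.

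Of the 22 further pathway genes 20 were above background on the BF2S slides, with 1 higher, 12 lower and 7 not called and a median log2 ratio of -1.30, where 19.3% of all probes were higher and 25.1% lower. Of the 12 lower genes, 11 had a BF2S signal above background on 1 slide alone and HXK2 on both, so the sizes that follow are uncertain. PGM1 was the higher one, at 1.34 ± 0.26, with BF2 above background on 1 slide. TPS3 (-1.17 ± 0.17), UGP1 (-1.61 ± 0.27), ATH1 (-1.21 ± 0.01) and GLG1 (-1.58 ± 0.59) were among the lower. So were the regulators GLC7 (-3.29), GAC1 (-2.45), IGD1 (-1.75), PIG2 (-1.72) and PHO85 (-1.38) and the genes for hexose phosphorylation, GLK1 (-3.23), HXK1 (-1.89) and HXK2 (-1.43). The regulators did not all go this way. Of the 9 genes around the phosphatase and kinase that control glycogen synthase, 6 lay below 0 on both slides and 3 above. The 3 were GLC8 (1.04 ± 0.48), PIG1 (0.93 ± 0.09) and PCL10 (0.73 ± 0.01), none of them called. GLC8 was above background in both channels of both slides, and PIG1 did not pass the filter on dim genes. NTH2 (-0.65 ± 0.45), GLG2 (0.44) and SGA1 (-0.47 ± 0.01) were not called. The comparisons of BF2B and BF2S share BF2 as their control, and the median difference of the 10 enzymes between them was -2.59 on the log2 scale and -1.24 after scaling between slides, with 6 of the 10 not above background in BF2S.

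**Figure D5:**
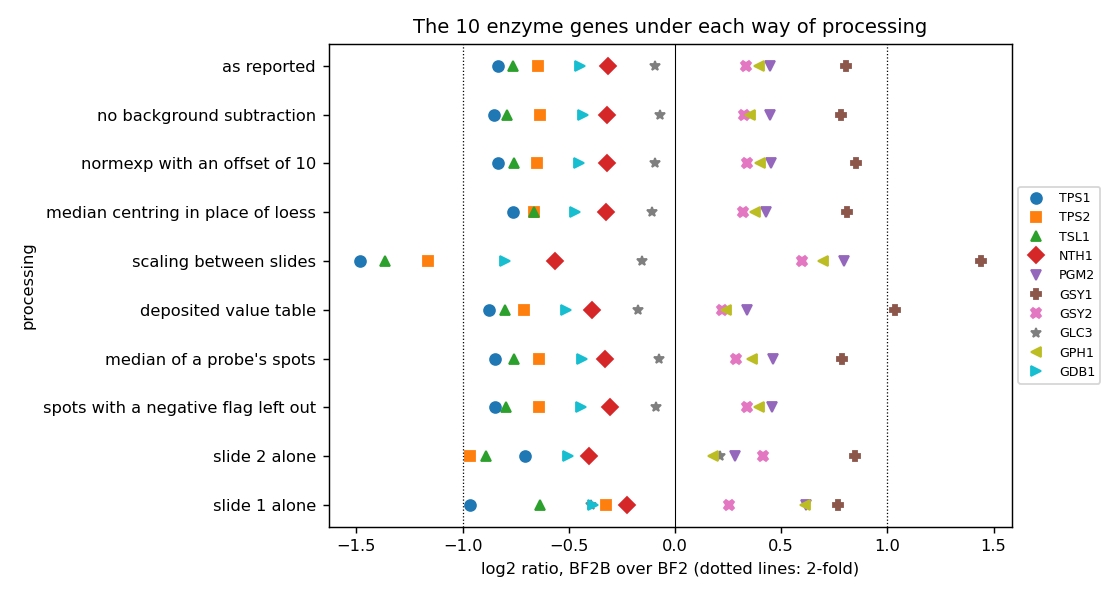
Mean log2 ratio of BF2B over BF2 (x axis) of the 10 genes (markers) under each way of processing the slides (y axis), with 2-fold as dotted lines. The 5 genes below 0 and the 4 above 0 keep their side throughout, GLC3 is at 0.21 on slide 2 alone, and scaling between slides moves TPS1 to -1.48; GSY1 has no value with marked spots left out.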

How the data were processed

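Per the labels' protocols, total RNA was amplified linearly, turned into cDNA, labelled with Cy5 or Cy3 and hybridised in pairs. Per the file headers, the intensity of spots and of the background around them was read at 635 nm (Cy5) and 532 nm (Cy3). The scanner is not given in the sources used here, nor is a genome build. The deposited value table holds log2 ratios. Within 0.001, they equalled the log2 ratio, strain to BF2, of the net medians of a probe's first spot for 63.4% to 69.8% of values, so scale and direction are known, and no centring was found, with column medians of 0.20, -0.29, 0.23 and -0.80.

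From the scanner files, ratios were recomputed in R 4.3.3 (limma 3.58.1) by normexp background correction (offset 50), loess on gene spots within each slide and the mean of a probe's spots, always as strain over BF2. Above background means that 2 or more of 3 spots were brighter than the mean of their local background by over 2 SD. Marked spots are those with a negative scanner flag, whose meaning is not explained, and they were kept. On slides 1 and 2 they made up 54.6% and 0% of gene spots for BF2B and 32.0% and 67.3% for BF2S. Bounds come from channel values after Aquantile scaling. Calling was tried on data simulated from BF2B intensities, with planted changes larger than those of the enzymes in BF2B and without blank spots. It therefore bears neither on changes of their size nor on the BF2S slides. Summaries used Python 3.11.15 with pandas 2.3.3 and numpy 2.4.6, and figures matplotlib 3.10.9. The RefSeq R64 gene table held 5806 of the 6388 systematic names.

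The members and lists were chosen with earlier results of these data known. The text names all members, called pathway genes and 8 fixed ones, and the 5 nearest genes to TPS1 and GSY1. A planned promoter search was not run. Alternatives were other background, normalization, spot, filter and threshold settings, the deposited table and each slide alone. Members at their bounds, and all 6 spots on 1 side, were added after the values were seen.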

Additional observations from a re-analysis of the deposited data

Results flagged for a closer look

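For 3 enzymes the ratio lay above 0 on every BF2B slide and below 0 on every BF2S slide. For GPH1 on BF2B slide 2 this held only after correction for dye and intensity. The BF2S ratio minus the BF2B ratio was -5.06 for PGM2, -3.57 for GSY2 and -2.11 for GPH1 on the log2 scale. In BF2S the signals of PGM2 and GSY2 were not above background on either slide, and with their bounds in place of the BF2S ratios the differences were -3.50 and -2.49. That of GPH1 was above background on slide 1 alone. The differences were not tested.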

How the results depend on the processing

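No paired analysis was possible because replicate numbers mark the 2 dye orientations of 1 RNA pair and no result comes from a test. Counts of 0 called enzymes and 0 called pathway genes in BF2B became 3 and 3 when slides were scaled to a common spread, which stretches the BF2B ratios, and 3 and 2 at 1.5-fold. Over all probes, 64 higher and 75 lower calls became 210 and 235 after scaling, 194 and 217 at 1.5-fold, 13 and 17 at 3-fold, and 98 and 148 or 150 and 112 on slide 2 or 1 alone. Single slides gave 0 enzymes and 0 to 1 pathway genes, the 1 on slide 1 alone. By all 6 spots on 1 side 9 enzymes counted. The BF2B median was -0.36 after scaling between slides and -0.28 to -0.11 on single slides.

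In BF2S the 9 called became 4 in the deposited table, where 5 enzymes had values on both slides, and 0 with both channels above background, where 1 enzyme, GSY1, was left and the median was 0.46. Over all probes, 1023 higher and 1328 lower calls became 131 and 718 after scaling, 437 and 1036 in the deposited table, 678 and 625 without marked spots, 731 and 49 with both channels above background and 250 and 852 at 3-fold. Each slide alone gave 9 enzymes. Over all probes, 1253 of 5998 were higher and 1531 lower on slide 2 alone. On slide 1 alone 1436 of 5317 were higher and 1566 lower. The BF2S median was -2.28 without background subtraction, -2.99 with an offset of 10, -3.24 under median centring, -1.63 after scaling, -2.16 without marked spots, -2.07 with members at their bound and -2.91 to -2.85 on single slides. The median difference of BF2S from BF2B was -2.10 without background subtraction, -3.07 under median centring, -1.24 after scaling, -3.09 in the deposited table and -2.74 to -2.60 on single slides, with no value when both channels had to be above background. Of 173 single-gene values under the alternatives 38 moved by over the SD of the slides and 0 called values changed sign. The uncalled GLC3 ran from -0.40 to 0.21 in BF2B. Signal over background limits precision for GSY1 in BF2 and for all 10 enzymes in BF2S.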
